A study of Mus musculus with 8 samples.

Results

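The loci of Meis1 and Meis2 were examined in chromatin immunoprecipitation sequencing (ChIP-seq) of the transcription factor OTX2 in the mouse embryonic ventral forebrain. Members were all deposited peaks (mm9) whose centre lay in a 700 kb window of chromosome 11 from 18500000 to 19200000 around Meis1, or in an 800 kb window of chromosome 2 from 115400000 to 116200000 around Meis2. These windows held 55 of the 26317 peaks of the 8 libraries, 34 around Meis1 and 21 around Meis2. All libraries came from wild-type CD-1 embryos at E12.5 (day of embryonic development), from septum and basal ganglia primordia, that is, the ganglionic eminences, medial (MGE) and lateral (LGE), pooled over several embryos. There were 3 libraries precipitated with an anti-OTX2 antibody, 3 of input chromatin with no antibody, and 2 precipitated with normal goat IgG. No genotype, age or treatment differed between them, so the comparison was antibody against background. The lists hold no expression values, so the dissection could not be checked against tissue markers. Pooled tissue also means that binding in few cells and weak binding in many cells cannot be told apart.

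MEIS1 and MEIS2 are paralogous homeodomain transcription factors of the TALE class that bind DNA together with PBX proteins. In the ventral telencephalon Meis2 is widely used as a marker of the LGE and of the striatal neurons that arise there, and Meis1 is also active in developing forebrain and is well known from blood and limb development. OTX2 is a homeodomain protein of the bicoid type, needed for forebrain and midbrain, and binds sites with the core TAATCC. Placing a peak near a gene does not show that OTX2 regulates it.

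The gene positions used here, 18.78 to 18.92 Mb for Meis1 and 115.69 to 115.89 Mb for Meis2, are rounded, so distances to a gene end are good to about 10 kb. Both genes are transcribed from the minus strand (RefSeq, GRCm38), so their 5′ ends are at the higher coordinate. In the order of protein-coding genes of GRCm38, Meis1 lies between Etaa1 and Spred2, and Meis2 between BC052040 and Tmco5. No gene other than Meis1 and Meis2 was placed on the mm9 coordinates. The 250 bases before the annotated start of each gene are shown because replicate 3 peaks reached or flanked both 5′ ends. They are RefSeq sequences of GRCm38.p6, minus strand, chr11:19018970-19019219 for Meis1 and chr2:116064620-116064869 for Meis2, in a build whose coordinates cannot be set beside those of the peaks. Capitals mark the homeodomain core TAAT on either strand.
Meis1 promoter: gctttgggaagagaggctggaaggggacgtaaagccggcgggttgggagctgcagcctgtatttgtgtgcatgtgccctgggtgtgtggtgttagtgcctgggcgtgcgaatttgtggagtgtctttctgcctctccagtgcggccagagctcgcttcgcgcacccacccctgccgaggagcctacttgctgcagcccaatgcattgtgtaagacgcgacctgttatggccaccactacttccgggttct
Meis2 promoter: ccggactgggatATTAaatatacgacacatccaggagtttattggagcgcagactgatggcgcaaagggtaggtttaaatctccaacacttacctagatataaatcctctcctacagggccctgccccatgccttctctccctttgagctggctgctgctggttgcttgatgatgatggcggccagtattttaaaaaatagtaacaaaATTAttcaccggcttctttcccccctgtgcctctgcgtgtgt
The core TAAT, searched on both strands, occurred 2 times before Meis2 and was not found before Meis1, and 54.9% of 32851 RefSeq promoter stretches of the same length held it. The longer OTX2 core TAATCC, which contains TAAT, was found in neither, and 6.25% of the stretches held it. A match or its lack in these windows is a description of letters only. Guanine and cytosine made up 59.6% of the Meis1 stretch and 47.6% of the Meis2 stretch, beside a median of 52.4% over all of them.

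OTX2 peaks lay in both windows in every OTX2 library, and no control library had a peak in either. The Meis1 window contained 6 peaks of OTX2 replicate 1, 3 of replicate 2 and 25 of replicate 3. The Meis2 window held 2, 1 and 18 peaks in the same libraries. All 3 input lists and both IgG lists held 0 peaks in each window, so OTX2 and control libraries did not overlap. Nor did the whole lists overlap in length, with 1298 to 22325 OTX2 peaks against 138 to 235 control peaks. The mean was 11.3 ± 11.9 OTX2 peaks per library at Meis1 and 7 ± 9.54 at Meis2 (SD, n = 3), against 0 in the 5 controls. With library labels permuted (exact test, two-sided), p was 0.036 at each locus, the smallest that 3 against 5 libraries allow. Since the whole lists were separated too, this p does not set the loci apart from the rest of the genome. The zeros in the controls carry little weight alone, since at the average density of those short lists a window of these lengths would hold between 0.038 and 0.074 peaks. Read depth is unknown, so precision is limited by the number of libraries.

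**Figure D1:**
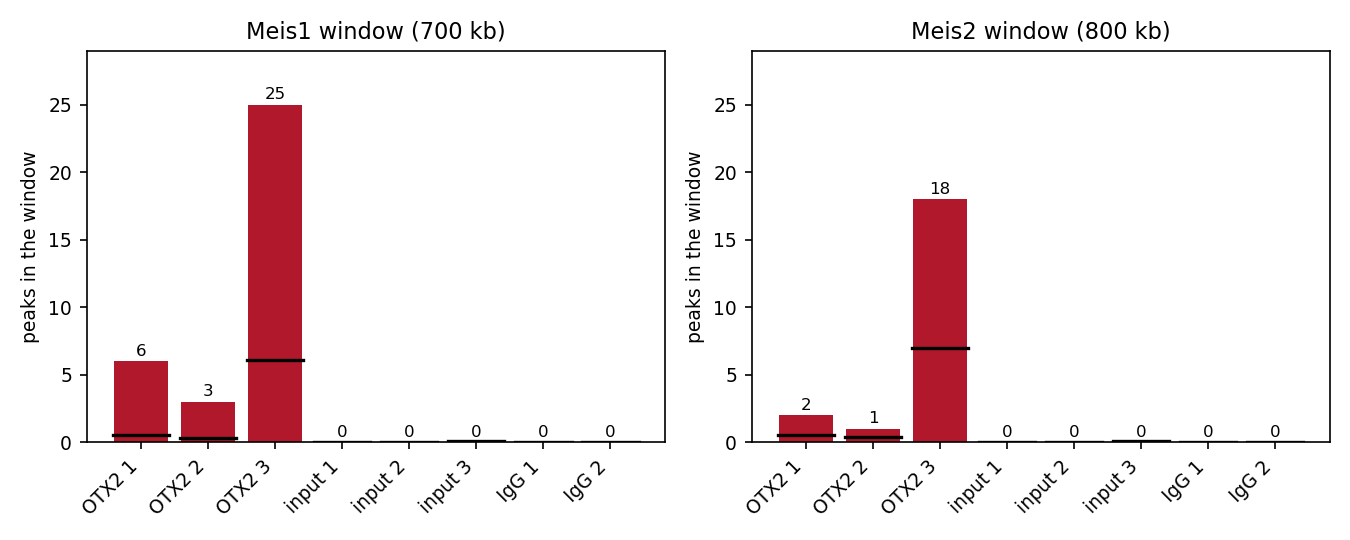
Number of peaks with their centre in the Meis1 window (left) and the Meis2 window (right) in each of the 8 libraries. Bars are peak counts and black lines give the number that a window of that length would hold at the average density of that list; the OTX2 lists reach 6, 3 and 25 peaks at Meis1 and 2, 1 and 18 at Meis2, and the 5 control lists 0.

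The replicates differed strongly in list length. Replicate 1 had 1848 OTX2 peaks in all, replicate 2 had 1298 and replicate 3 had 22325, while control lists ranged from 138 to 235. The OTX2 and input lists numbered 3 are titled differently inside the files from the other 6, and no source used here says whether their peaks were called alike. Replicates 1 and 2 were therefore also read alone. Their mean difference from the 4 controls with the same replicate numbers was 4.5 peaks at Meis1 and 1.5 peaks at Meis2 (exact two-sided permutation test, p = 0.13 at each, the smallest that 2 against 4 libraries allow). All 3 OTX2 lists were also set to the length of the shortest, 1298 peaks. The mean difference from the 5 controls was then 4 peaks at Meis1 and 1.33 at Meis2 (exact permutation test, p = 0.036 at each). The control lists kept their 138 to 235 peaks, so this made the OTX2 lists equal but left them longer than the controls. Best ranks in replicates 1, 2 and 3 were 525, 543 and 193 at Meis1, and 716, 929 and 927 at Meis2. Within the best 235 of each OTX2 list, only the replicate 3 peak ranked 193 at Meis1 would remain.

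Relative to the average of its own list, each OTX2 library was denser in both windows, and more so at Meis1. Replicate 1 had 8.57 peaks per Mb at Meis1 and 2.5 per Mb at Meis2, beside 0.723 per Mb over the genome. Replicate 2 had 4.29 and 1.25 peaks per Mb, beside 0.508 per Mb. In replicate 3 the densities were 35.7 and 22.5 peaks per Mb, beside 8.73 per Mb. The ratio to the genome was thus 11.9, 8.44 and 4.09 at Meis1 and 3.46, 2.46 and 2.58 at Meis2 for replicates 1, 2 and 3. Meis1 was above Meis2 in 3 of 3 libraries. The difference between the loci was not tested.

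To give these counts a background, each chromosome was cut into adjacent windows of the same length. Of 3643 windows of 700 kb, 0.412% held at least the 6 replicate 1 peaks of Meis1, 2.39% at least its 3 replicate 2 peaks and 0.741% at least its 25 replicate 3 peaks. At Meis2 the same shares of 3187 windows of 800 kb were 12.4% for 2 replicate 1 peaks, 26.2% for 1 replicate 2 peak and 5.90% for 18 replicate 3 peaks. The Meis1 window was thus among the denser windows in each list. For Meis2 that held mainly in replicate 3, since its counts in replicates 1 and 2 were matched by many windows.

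**Figure D2:**
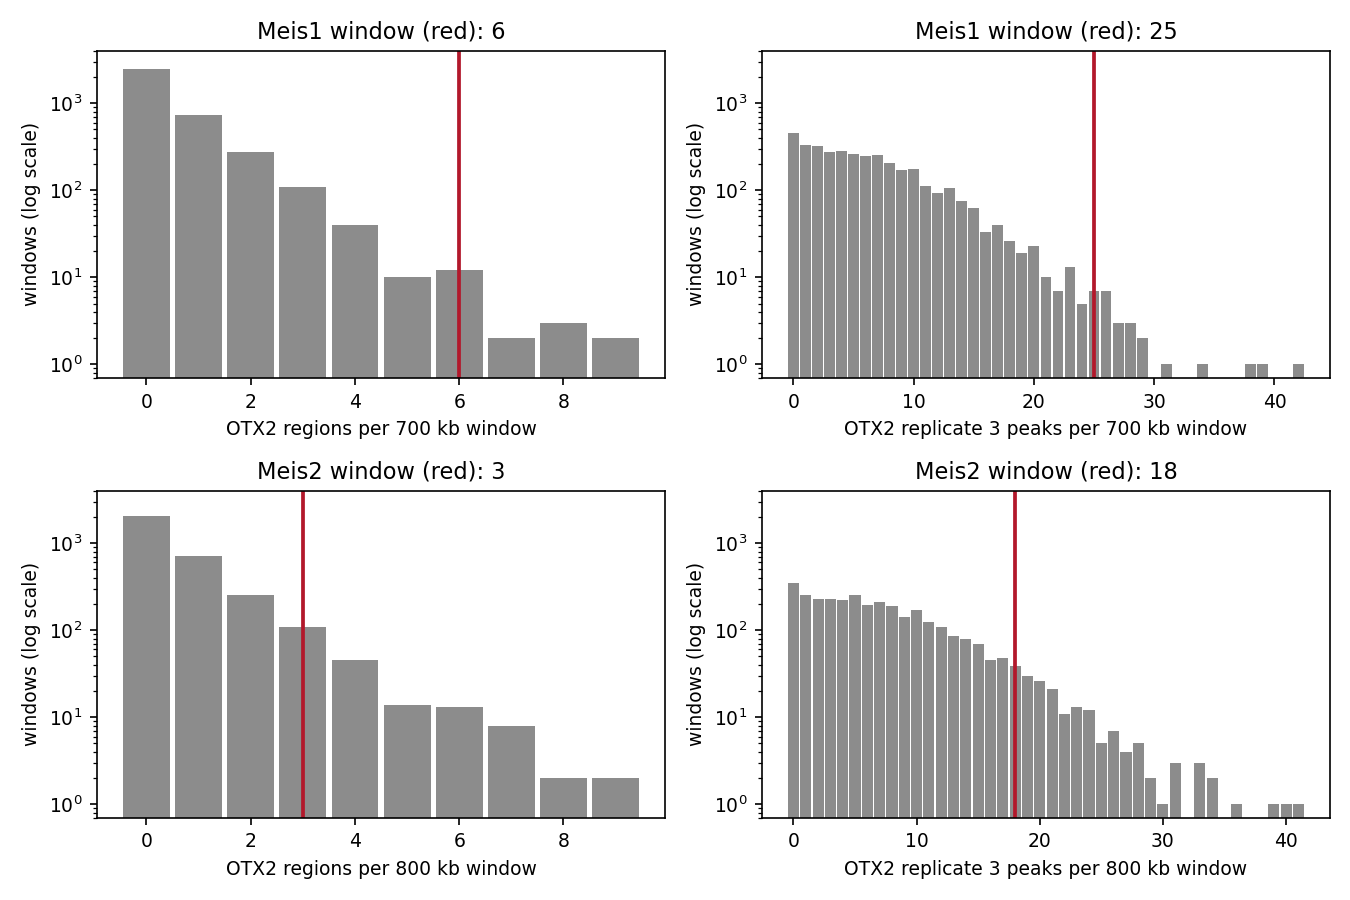
Number of adjacent genomic windows (log scale) against the number of OTX2 regions (left) or OTX2 replicate 3 peaks (right) that each holds, for 700 kb windows with the Meis1 count as a red line (top) and 800 kb windows with the Meis2 count (bottom). The Meis1 counts of 6 regions and 25 peaks lie far along the tail, and those of Meis2, 3 regions and 18 peaks, lie nearer the bulk.

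Sites seen by more than 1 experiment were 6 around Meis1 and 3 around Meis2. An OTX2 region was defined as a group of peaks overlapping by at least 1 bp, with members from at least 2 OTX2 lists and none overlapping a control peak. Over the genome 8.61% of 22629 merged OTX2 intervals met this definition, beside 6 of 25 intervals at Meis1 (24.0%, exact Clopper-Pearson 95% interval 9.36 to 45.1%) and 3 of 18 at Meis2 (16.7%, 3.58 to 41.4%). All 3 libraries shared 3 of the 6 Meis1 regions and 0 of the 3 Meis2 regions, beside 40.5% of the 1949 OTX2 regions of the genome. Both intervals for these shares contain the genome's value (11.8 to 88.2% at Meis1, 0 to 70.8% at Meis2). For the share that met the definition, the Meis2 interval (3.58 to 41.4%) also contains the genome's 8.61%. At least 6 regions were held by 0.522% of the 700 kb windows, and at least 3 by 6.02% of the 800 kb windows. Most such windows held none, 67.5% and 64.1% respectively.

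**Figure D3:**
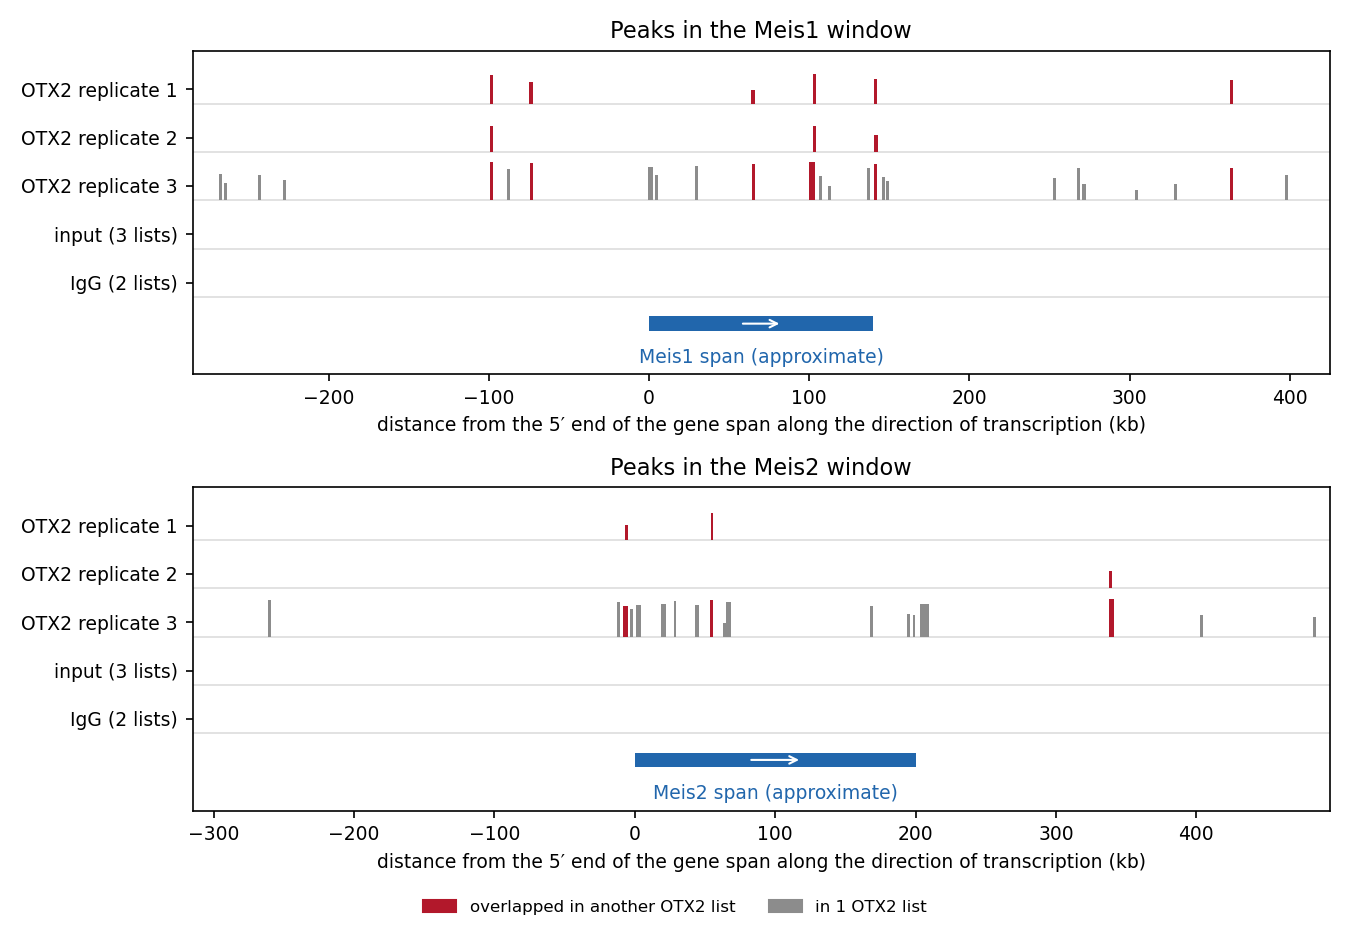
Peaks in the Meis1 window (top) and the Meis2 window (bottom) by distance in kb from the rounded 5′ end of the gene, with transcription running left to right and negative values upstream. Each bar is 1 peak, taller where better ranked in its own list and drawn at least 2 kb wide; red peaks overlap a peak of another OTX2 list, grey ones do not, the blue box is the gene, and the input and IgG lanes hold no peak.

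In replicates 1 and 3 the best-ranked peak of either locus lay inside Meis1, 101.9 kb past its 5′ end, and replicate 2 had a peak there too. This region, on chromosome 11 from 18816353 to 18819946, was ranked 525 of 1848 in replicate 1, 560 of 1298 in replicate 2 and 193 of 22325 in replicate 3. The replicate 1 and 2 peaks there were 160 and 137 bp wide, and their centres were 1.5 bp apart. They sat at one end of the 3594 bp replicate 3 peak, 506 and 507.5 bp from its lower edge. The 2 narrow peaks thus lay at the same place, away from the middle of the broad one.

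Another site of all 3 libraries, and the best-ranked in replicate 2, lay 98.4 kb upstream of Meis1. It spanned 19017719 to 19019082 on chromosome 11 and was ranked 597, 543 and 431 in replicates 1, 2 and 3. Centres of its 3 peaks were between 14.5 and 63 bp apart. The last site of all 3 libraries, from 18777809 to 18779246, lay 1.47 kb beyond the rounded 3′ end of Meis1. Its ranks were 833, 926 and 1513. The 3 sites shared by all libraries were therefore spread over the locus, with 1 upstream, 1 inside and 1 at the end of the gene.

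The remaining Meis1 regions were shared by replicates 1 and 3 only. An intragenic region from 18854425 to 18855509, 65.0 kb past the 5′ end, was ranked 1550 and 1261 in replicates 1 and 3. Upstream of the gene, the stretch from 18992859 to 18994325 had ranks 1006 and 1008, and its centre was 24.8 kb from that of the upstream site of all 3 libraries. The most distant region, from 18556097 to 18556974, lay downstream of the gene and was ranked 929 and 4821. Its centre was 363 kb past the 5′ end and 223 kb beyond the rounded 3′ end. It was the narrowest of the 6, at 878 bp.

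Around Meis2 each shared site rested on replicate 3 and 1 other library. The one ranked best in replicate 1, from 115834280 to 115836462 on chromosome 2, lay inside the gene, 54.6 kb past its 5′ end, and was ranked 716 in replicate 1 and 1200 in replicate 3. A site from 115895164 to 115898131 lay 6.65 kb upstream of the rounded 5′ end and was ranked 1431 and 6058 in the same libraries. The last, from 115548415 to 115552314, was ranked 929 in replicate 2 and 927 in replicate 3. It lay downstream of Meis2, 340 kb past the 5′ end and 140 kb beyond the rounded 3′ end. On that side BC052040 is the next protein-coding gene in GRCm38. The narrow peak of replicate 1 or 2 was 371.5, 467 and 1002.5 bp from the centre of the replicate 3 peak at these 3 sites. At the 6 Meis1 regions the replicate 1 peak was between 36.5 and 144.5 bp from that centre, apart from 1291 bp at the site 101.9 kb inside the gene.

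All peaks of replicates 1 and 2 in the windows were found again in replicate 3. This held for 6 of 6 replicate 1 peaks at Meis1 and 2 of 2 at Meis2, where 87.9% of the list was found again. For replicate 2 it held for 3 of 3 and 1 of 1, where 92.1% of the list was. With shares this high over the genome, the full overlap is near the background. Replicates 1 and 2 shared 3 sites at Meis1, which was 3 of 6 replicate 1 peaks (43.0% of its list) and 3 of 3 replicate 2 peaks (61.6% of its list). At Meis2 they shared none of 2 and 1 peaks.

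Most replicate 3 peaks in the windows stood alone. At Meis1 19 of 25 and at Meis2 15 of 18 had no overlap in replicate 1 or 2. Those found again, 24.0% (9.36 to 45.1%) and 16.7% (3.58 to 41.4%), compare with 8.83% of the list, which the Meis2 interval contains. They are the replicate 3 peaks of the OTX2 regions given above, so these shares are not a second measure. With replicate 2 as the only other list the shares were 12% (3 of 25) at Meis1 and 5.56% (1 of 18) at Meis2, beside 5.25% of the list, so the Meis2 share was then near the background. Among the best-ranked 10% of replicate 3, all 5 peaks at Meis1 were found again. At Meis2, 2 of 4 were, beside 64.6% of the peaks of such rank over the genome. Among the other peaks 1 of 20 at Meis1 and 1 of 14 at Meis2 were found again, beside 2.64% of such peaks over the genome.

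Ranks placed the members differently in the 3 libraries. A rank percentile near 0 is best, and the median of any list is 50. None of the 8 replicate 1 peaks and none of the 4 replicate 2 peaks of the loci was in the best-ranked 25% of its list. Best percentiles were 28.4 in replicate 1 and 41.8 in replicate 2, both at Meis1. In replicate 3, 11 of 25 Meis1 peaks and 10 of 18 Meis2 peaks were in the best 25%, with best percentiles of 0.865 and 4.15 and medians of 42.5 and 22.9. For scale, the 420 regions of all 3 libraries whose replicate 3 rank was 500 or better had median ranks of 257.5 in replicate 1 and 238 in replicate 2. The 2 Meis1 regions in that class, ranked 525 and 597 in replicate 1 and 560 and 543 in replicate 2, were ranked worse than those medians.

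**Figure D4:**
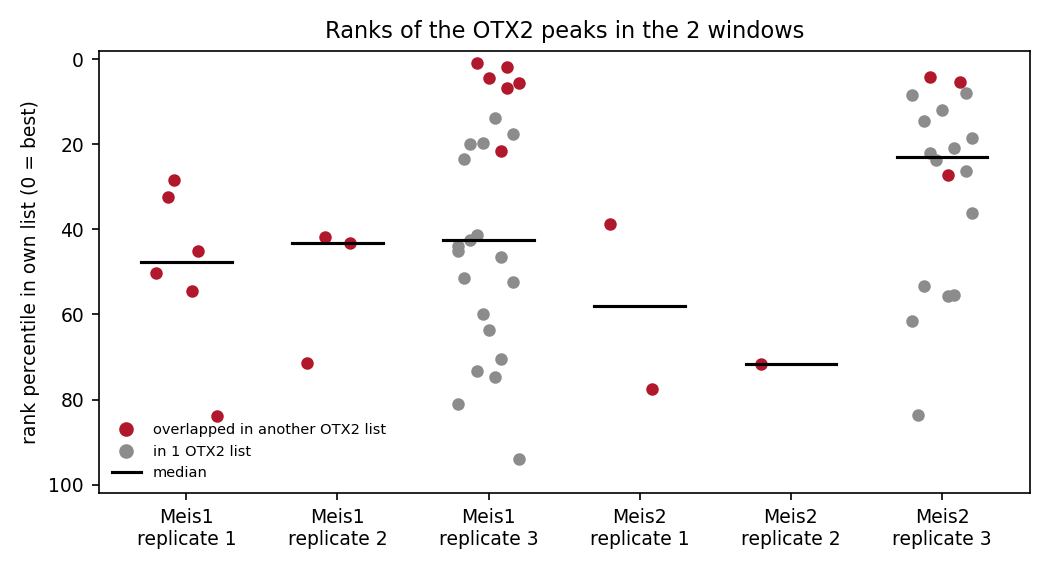
Rank percentile (0 is best, axis inverted) of every OTX2 peak of the windows within its own list, by locus and replicate. Points are peaks, red where another OTX2 list overlaps them, and black lines are medians; replicate 3 medians are 42.5 at Meis1 and 22.9 at Meis2, and no peak of replicates 1 or 2 is better than 28.4.

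Among replicate 3 peaks that no other list overlapped, those around Meis2 were ranked better. The best 3 at Meis2 were ranked 1763, 1860 and 2664. They spanned 116149294 to 116150952, 260 kb upstream of the gene, and 115860777 to 115862011 and 115821463 to 115824707, both inside it. At Meis1 the best 3 were ranked 3067, 3939 and 4378 and spanned 18889279 to 18891393, 18917248 to 18920932 and 18781844 to 18783798. The centres of these 3 were in the rounded gene span. A single library supports each of these 6 peaks.

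Replicate 3 had peaks at or near both 5′ ends. The Meis1 peak from 18917248 to 18920932, ranked 3939, covered the rounded 5′ end and at 3685 bp was the widest of its window. At Meis2, a 3392 bp peak from 115885500 to 115888891 (rank 4933) ended 1.11 kb before the rounded 5′ end, and another from 115891721 to 115893260 (rank 8056) began 1.72 kb beyond it. Replicates 1 and 2 had no peak within 10 kb of the Meis1 5′ end. At Meis2 replicate 1 had 1, the site 6.65 kb upstream. Within 10 kb of the 3′ ends replicate 3 had 4 peaks at Meis1 and 3 at Meis2, among them the widest of all members, of 6371 bp from 115680566 to 115686936 (rank 4145).

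Replicate 3 peaks were denser inside the genes than in the flanks. The Meis1 span held 8 peaks in 140 kb, which was 5.71 per 100 kb, beside 2.5 upstream and 3.57 downstream. The Meis2 span held 10 peaks in 200 kb, or 5 per 100 kb, beside 1.29 upstream and 1.38 downstream. Over the genome the density was 0.873 per 100 kb. Of the regions, 2 were upstream, 2 inside and 2 downstream at Meis1, and 1 in each part at Meis2, although the gene was the shortest part of both windows. One downstream region at Meis1 (1.47 kb from the gene end) and the upstream one at Meis2 (6.65 kb) lay within the 10 kb precision. Their assignment to a part is therefore uncertain. These counts carry no test, and the count inside Meis1 fell to 5 with the span 10 kb shorter at both ends.

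The 2 loci differed in how their peaks were spaced. At Meis2, 10 of 18 replicate 3 peaks lay within 81.1 kb, from 115821463 to 115902530, reaching from 68.5 kb inside the gene to 12.53 kb upstream of it. All of them lay in the densest 100 kb stretch of the window. Of the 3187 windows of 800 kb, 0.879% had a densest stretch with at least 10 replicate 3 peaks, and the median was 3. Of these 10 peaks, 2 were found in replicate 1, as were 7.19% of the list. The next peak upstream was 248.5 kb from the last of them, centre to centre. At Meis1 the densest stretch held 8 peaks in 84.8 kb in and beyond the 3′ part of the gene, from 18770709 to 18855509, which the densest stretch of 3.02% of the 700 kb windows matched or exceeded. It contained 3 of the 6 Meis1 regions. The longest peak-free interval at Meis1, 129 kb, lay farther upstream, beyond the site at 98.4 kb.

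Replicate 3 peaks of the Meis2 window were wide. Their median width was 1998.5 bp, against 937 bp at Meis1 and 827 bp over the list. Wider than 1500 bp were 13 of 18 Meis2 peaks and 5 of 25 Meis1 peaks, beside 10.5% of the list. Since well-ranked peaks of this list were wider, each member was also set against the median of the list peaks in its own class of rank, with 4 classes of 25% each, which was 1173, 891, 765 and 615 bp from the best to the last class. By that measure 17 of 18 Meis2 peaks and 14 of 25 Meis1 peaks were wider, beside 49.9% of the list. In the best class the median was 2994 bp for 10 Meis2 peaks and 1467 bp for 11 Meis1 peaks. In the narrow lists the 2 replicate 1 peaks of Meis2 were 150 and 156 bp wide, below the list median of 191 bp. The single replicate 2 peak was 213 bp wide, above the list median of 182 bp. Replicate 3 peaks covered 5.22% of the Meis2 window and 4.43% of the Meis1 window, beside 0.853% of the genome.

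**Figure D5:**
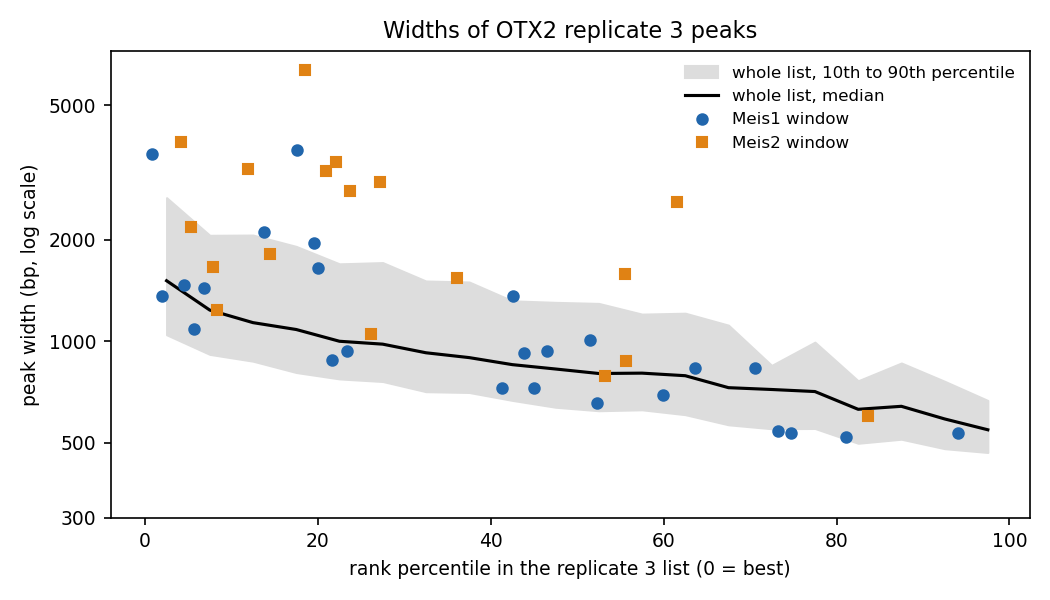
Width in bp (log scale) of the OTX2 replicate 3 peaks of the Meis1 window (blue circles) and the Meis2 window (orange squares) against rank percentile in the list, where 0 is best. The black line and grey band give the median and the 10th to 90th percentile of the whole list in steps of rank; 17 of 18 Meis2 peaks are wider than the median of their class of rank, and 14 of 25 Meis1 peaks.

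The window borders leave out 2 nearby sites found by more than 1 library. Beyond the upper border of Meis1, replicate 3 had a peak ranked 1075 at 51.2 kb and replicate 1 one ranked 1145 at 51.3 kb. Just inside that border the nearest replicate 3 peak, at 12.4 kb, was ranked 9224. Below the lower border of Meis2, replicates 1 and 2 had peaks ranked 158 and 197, 114 kb outside. Inside it the nearest replicate 3 peak, at 5.81 kb, was ranked 13752. Counts per locus thus depend on where the windows end.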

How the data were processed

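Anti-OTX2, input and IgG chromatin was sequenced as single reads of 50 bp, per the labels' protocols. The authors deposited 1 peak list per library, so peaks were called per sample. Each line gives the bounds of a peak and its rank within that list, 1 being the best. BWA, MACS 1.4 and mm9 are named in the submitters' processing notes without roles or parameters. No source used here gives the control, the threshold or the quantity behind the rank. The lists hold no heights or read totals. Groups and replicate numbers came from sample titles. Whether litters were separate is not stated in the labels, so p-values measure the spread between these libraries.

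Coordinates are those of the files, written 1-based. Overlaps, windows and exact permutation tests were computed with numpy 2.4.6 and scipy 1.17.1 under Python 3.11.15, and checked on simulated intervals. Adjacent windows ran between the lowest and highest position of any list on each chromosome, 2557.6 Mb in all. Intervals on shares of peaks cover counting error only. Regions with ranks were named by rule: every OTX2 region, all peaks of replicates 1 and 2, and the 3 best-ranked peaks of replicate 3 alone per window; peaks at gene ends and borders were added after their values were seen. Alternatives are listed in the closing section. The loci, windows and rules were chosen with earlier results of these data known, and no p was adjusted over the 2 loci.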

Additional observations from a re-analysis of the deposited data

How the results depend on the processing

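Depth is unknown, and every p at its smallest possible value says little about stability. With every control list at 0 in both windows, the excess of OTX2 over control peaks could not turn negative under any alternative, so its direction shows no stability. Smaller designs could not reach the threshold of 0.05. Against input alone the difference stayed 11.3 peaks at Meis1 and 7 at Meis2 (exact permutation test, p = 0.10 at each). In the replicate block, with OTX2 and input paired by replicate number, it was again 11.3 and 7 (exact paired permutation test, p = 0.25, the smallest 3 pairs allow); whether the numbers pair the samples could not be checked. Without one replicate it ranged from 4.5 to 15.5 peaks at Meis1 and from 1.5 to 10 at Meis2 (exact permutation test, p = 0.13 to 0.20), lowest without replicate 3. At Meis2 the better-ranked 50% of each list gave 4.67 and the gene span alone 3.67 peaks (exact permutation test, p = 0.21 each), since replicate 2 then had 0.

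Region counts depended on the libraries. Without one replicate they ranged from 3 to 6 at Meis1 and from 0 to 2 at Meis2, with 3 and 0 without replicate 3 and 3 and 1 without replicate 1. All 3 libraries gave 3 and 0, any 1 library 25 and 18, and the better-ranked 50% of each list 3 and 1. With peaks of 200 bp at their centres Meis1 kept a count of 6 and Meis2 had 0. The Meis1 region 101.9 kb inside the gene then rested on replicates 1 and 2 only. Their centres there were 1291 and 1289.5 bp from that of replicate 3. The share of replicate 3 peaks found again was 20% at Meis1 and 0% at Meis2 with these 200 bp peaks. Without replicate 1 that share fell from 24 to 12% at Meis1 and from 16.7 to 5.56% at Meis2. The share of windows with at least as many regions ranged from 0.302 to 1.98% for Meis1 without one replicate, and from 10.8 to 24.5% for Meis2. Without replicate 3 Meis2 had no region, so that share had no value. With the gene span 10 kb shorter at both ends Meis1 held 5 replicate 3 peaks. Shortened spans, and 50% overlap, 200 bp peaks or left-out libraries for the share found again, were chosen after seeing the data.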
